A study of Mus musculus with 2 samples.

Results

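The antigen presentation genes of the newborn mouse stomach are the protein-coding genes whose symbol starts with H2-, together with B2m, Tap1, Tap2, Tapbp, Psmb8, Psmb9, Psmb10, Nlrc5, Ciita and Cd74. They were found by matching gene IDs to GENCODE symbols, which gave 44 genes of 21474 protein-coding genes in the tables. Of the 44, 34 carry an H2- symbol and 10 were named singly. The H2- genes belong to the major histocompatibility complex of the mouse, and 39 of the 44 genes lie on chromosome 17.

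The libraries were made from total RNA of the whole stomach of 2 pups of strain B6NCrl, pup 2 and pup 1, taken at birth (age 0 days) from the same dam. Sex was not collected, no treatment is named, and each pup gave 1 stomach and 1 library. The pups thus form 1 group, and every difference between them sets 1 library against another with no replicate check. No p-value was computed. Whole organs mix epithelium, muscle, nerve, vessels and resident blood cells, so no value below belongs to 1 cell type.

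Class I molecules present peptides from inside the cell to CD8 T cells, and nearly every nucleated cell makes them. They consist of a heavy chain and beta-2 microglobulin. Their peptides are cut by the proteasome, carried into the endoplasmic reticulum by the TAP transporter and loaded with the help of tapasin. Class II molecules present peptides from endosomes to CD4 T cells and are made mainly by dendritic cells, macrophages and B cells, with the invariant chain as a chaperone and the DM and DO proteins as peptide editors. Nonclassical class I proteins resemble the classical heavy chains but vary little between individuals, and several have special ligands or partners.

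Summed over all features, pup 2 had 49983574 expected counts, against 51524479 in pup 1. The labelled tissue was checked with 4 genes of gastric epithelium, Atp4b, Gkn1, Tff1 and Pgc, whose TPM (transcript abundance per unit of length, scaled to a fixed total) lay between 690 and 13022. Together the 44 genes held 0.103% of all TPM in pup 2 against 0.104% in pup 1. Detection was set as TPM 1 or more in each pup, and 21 of the 44 genes (47.7%) reached it, against 13138 of all 21474 protein-coding genes (61.2%). All of B2m, the transporter, tapasin and immunoproteasome genes were detected, but 17 of the 22 nonclassical class I genes were not. Values are TPM unless a count is named, and intervals are those deposited with the TPM, at a level not given in the sources used here.

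**Figure D1:**
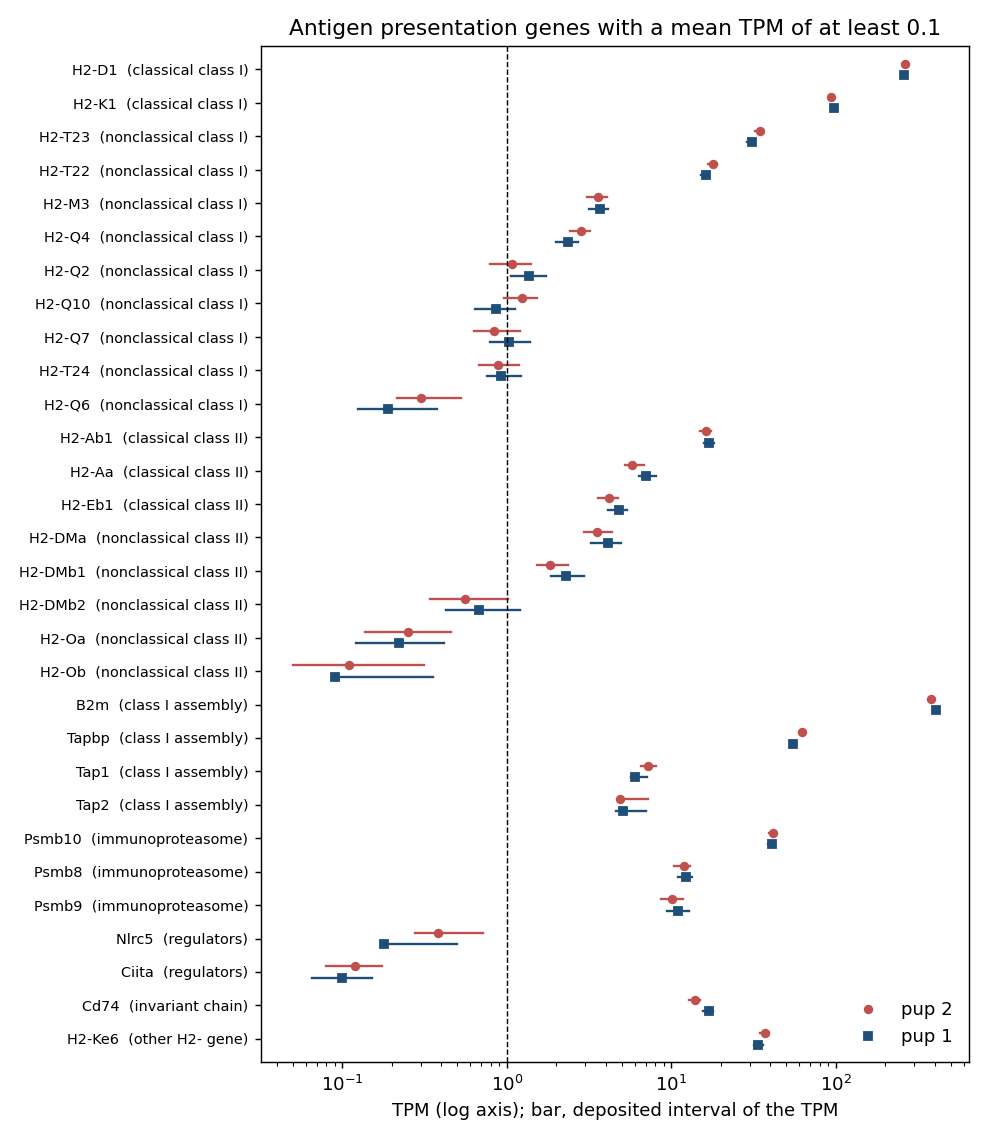
TPM of each antigen presentation gene with a mean TPM of at least 0.1, on a log axis, in pup 2 (circles) and pup 1 (squares), with the deposited interval as a bar. B2m, H2-D1 and H2-K1 stand highest, B2m at 382 in pup 2 against 408 in pup 1, and the dashed line marks a TPM of 1.

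Between the pups, the 44 genes differed little. A gene was called with a mean count of at least 100, intervals apart and TPM values 2-fold or more apart. None of the 20 members with enough counts was called, against 58 of 13243 protein-coding genes (0.438%). Without the fold limit, a choice made after the data were seen, 4 of the 20 (20%) had intervals apart, against 21.6% of protein-coding genes, of which 1748 were higher and 1115 lower in pup 2. Tapbp and H2-T23 were higher and B2m and Cd74 lower in pup 2. Over the 22 genes with a mean TPM of at least 1, log2 ratios of TPM + 1 (pup 2 over pup 1) had a median of -0.04 and ran from -0.26 in Cd74 to 0.26 in H2-Q10, with 9 higher and 13 lower in pup 2. All of these lay inside the range of -0.35 to 0.38 that held the middle 95% of 13339 protein-coding genes, whose median was 0.03.

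**Figure D2:**
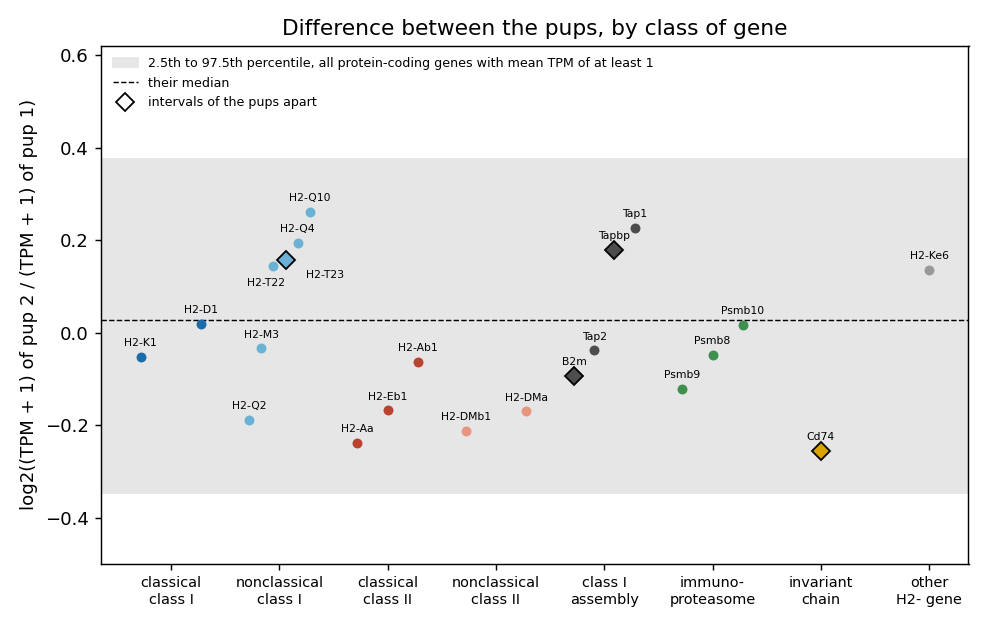
Log2 ratio of TPM + 1, pup 2 over pup 1, for the 22 antigen presentation genes with a mean TPM of at least 1, grouped by class, with diamonds where the deposited intervals of the pups were apart. Grey marks -0.35 to 0.38, the middle 95% of protein-coding genes. The class II genes and Cd74 all lie below 0.

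H2-D1 and H2-K1 encode the classical heavy chains of this strain. H2-D1 (chromosome 17, 35262730 to 35267499) reached a TPM of 265 in pup 2, with an interval of 256 to 266, and 261 in pup 1, with an interval of 253 to 263. H2-K1 (chromosome 17, 33996017 to 34000347) stood at 93.7 in pup 2 against 97.2 in pup 1. The pups thus lay close for both genes, and their intervals overlapped. H2-D1 ranked 510th and H2-K1 1364th by mean TPM among the protein-coding genes. The level of H2-D1 was 2.83 times that of H2-K1 in pup 2 against 2.69 times in pup 1. Their summed TPM was 358.5 in pup 2 against 358.4 in pup 1.

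Some of the heavy chains are alike in sequence, which bears on how reads are divided among them. Over the aligned coding bases, H2-D1 was 91.5% identical to H2-K1, 90.4% to H2-Q4, 89.6% to H2-Q10, 81.1% to H2-T23, 75.2% to H2-T22 and 75.1% to H2-M3. The same 90 coding bases of the exon that encodes part of the peptide-binding groove are shown for the 7 genes, read from the GENCODE M21 transcripts on build mm10, since they show where a read can tell the genes apart. Among ungapped stretches of H2-D1 inside an exon, this was the one with the highest summed identity to the other genes shown and H2-Q7. It is therefore no typical part of these genes. Capitals mark bases that differ from H2-D1, of which there are 8 in H2-K1, 7 in H2-Q4, 13 in H2-Q10, 9 in H2-T23, 19 in H2-T22 and 24 in H2-M3.
H2-D1 (chr17:35263411-35263500, plus strand): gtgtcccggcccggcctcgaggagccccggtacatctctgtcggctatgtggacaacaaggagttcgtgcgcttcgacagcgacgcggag
H2-K1 (chr17:33999882-33999971, minus strand): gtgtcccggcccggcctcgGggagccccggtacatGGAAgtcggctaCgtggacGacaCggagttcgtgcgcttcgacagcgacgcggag
H2-Q4 (chr17:35379936-35380025, plus strand): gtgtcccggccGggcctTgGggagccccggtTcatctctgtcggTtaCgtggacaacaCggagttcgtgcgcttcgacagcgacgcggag
H2-Q10 (chr17:35470408-35470497, plus strand): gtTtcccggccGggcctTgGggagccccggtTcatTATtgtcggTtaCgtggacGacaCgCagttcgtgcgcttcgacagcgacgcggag
H2-T23 (chr17:36032301-36032390, minus strand): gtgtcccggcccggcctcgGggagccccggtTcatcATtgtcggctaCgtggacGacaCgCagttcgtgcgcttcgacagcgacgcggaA
H2-T22 (chr17:36042007-36042096, minus strand): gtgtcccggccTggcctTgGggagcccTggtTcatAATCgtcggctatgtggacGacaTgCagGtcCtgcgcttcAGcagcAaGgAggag
H2-M3 (chr17:37270554-37270643, plus strand): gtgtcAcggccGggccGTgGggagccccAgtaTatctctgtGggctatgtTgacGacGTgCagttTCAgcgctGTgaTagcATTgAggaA
A read of 100 bases over this stretch crosses several such differences. Of all windows of 100 bases in the main transcript, none of H2-K1 and 4.64% of H2-D1 occurred in a transcript of another gene, most often H2-Q1, a gene with 0 counts in pup 2 against 1.18 in pup 1.

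The 22 nonclassical genes summed to a TPM of 63.3 in pup 2 against 57.5 in pup 1, and 5 of them were detected. H2-T23, which encodes Qa-1 and shows leader peptides of other class I chains to receptors of natural killer cells, had a TPM of 34.4 in pup 2 (interval 32.5 to 35.6) against 30.8 in pup 1 (interval 29.0 to 31.9). These intervals did not overlap, and the TPM of pup 2 was 1.12 times that of pup 1. H2-T22, a ligand of some gamma delta T cells, stood at 18.0 in pup 2 against 16.2 in pup 1, with intervals that overlapped. H2-T23 and H2-T22 together held 12.4% of all class I heavy chain TPM in pup 2 against 11.3% in pup 1. H2-D1 and H2-K1 held 84.99% in pup 2 against 86.2% in pup 1, and the 20 other genes 2.58% in pup 2 against 2.52% in pup 1.

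The remaining nonclassical genes stood low. H2-M3, which presents formylated peptides, had a TPM of 3.57 in pup 2 against 3.68 in pup 1. H2-Q4, of the Qa region, stood at 2.83 in pup 2 against 2.35 in pup 1, and H2-Q2 at 1.07 in pup 2 against 1.36 in pup 1. H2-Q10, a secreted class I protein known from the liver, stood at 1.23 in pup 2 against 0.86 in pup 1 and so missed the detection limit in 1 pup. For each of these 4 genes the intervals of the pups overlapped. H2-Q7, which encodes Qa-2, H2-T24 and H2-Q6 were chosen for mention after their values were seen. H2-Q7 had a TPM of 0.84 in pup 2 against 1.03 in pup 1, H2-T24 had 0.88 in pup 2 against 0.92 in pup 1, and H2-Q6 had 0.30 in pup 2 against 0.19 in pup 1. H2-M5, also named on that ground, had 7 counts in pup 2 against 4 in pup 1.

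By locus, the 6 H2-Q genes summed to 6.27 in pup 2 against 5.81 in pup 1, and the 4 H2-T genes to 53.3 in pup 2 against 47.9 in pup 1. The 12 H2-M genes summed to 3.71 in pup 2 against 3.74 in pup 1, nearly all of it H2-M3. H2-M1, H2-M11, H2-M10.1, H2-M10.4, H2-M10.5 and H2-M10.6 had no count in either pup, and H2-M2, H2-M9, H2-M10.2 and H2-M10.3 had 1 count in 1 pup. Genes of the M1 and M10 families are known from sensory neurons of the vomeronasal organ. With 0 counts, up to 3 remain possible by counting error alone, or a CPM, the count relative to the whole library, of 0.0600 in pup 2 against 0.0582 in pup 1. H2-T3, the thymus leukaemia antigen of intestinal epithelium, had 3 counts in pup 2 against 0 in pup 1, which is at the same floor.

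B2m (chromosome 2, 122147686 to 122153083), the light chain of every class I molecule, had a TPM of 382 in pup 2 (interval 369 to 383) against 408 in pup 1 (interval 395 to 409). Its intervals did not overlap, and it was the highest of the 44 genes in both pups. Set against the summed heavy chains, the level of B2m was 0.905 times theirs in pup 2 against 0.980 times in pup 1. Tapbp, which encodes the loading chaperone tapasin, stood at 61.9 in pup 2 (interval 59.5 to 63.8) against 54.6 in pup 1 (interval 52.5 to 56.4), again without overlap. The transporter genes were lower. Tap1 had a TPM of 7.17 in pup 2 against 5.98 in pup 1, and Tap2 4.89 in pup 2 against 5.05 in pup 1, both with overlapping intervals. The level of Tapbp was 8.64 times that of Tap1 in pup 2 against 9.13 times in pup 1.

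The 10 other genes of class I loading and trimming were all detected, and none differed 2-fold between pups. The loading oxidoreductase Pdia3 stood at 519 ± 1.61 (mean ± SD, n = 2 pups), the chaperone Calr at 452 ± 7.78 and the proteasome activator Psme2 at 257 ± 29.3, all above Tapbp. The trimming peptidase Erap1 stood at 12.6 ± 0.297 and the tapasin-related Tapbpl at 7.32 ± 0.0495, and both were named after their values were seen.

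Psmb8, Psmb9 and Psmb10 encode catalytic subunits that replace Psmb5, Psmb6 and Psmb7 of the standard proteasome in cells exposed to interferon gamma and in lymphoid cells. Psmb10 (chromosome 8, 105935735 to 105938444) reached a TPM of 41.6 in pup 2 against 41.2 in pup 1. Psmb8 stood at 11.9 in pup 2 against 12.3 in pup 1, and Psmb9 at 10.1 in pup 2 against 11.1 in pup 1. All 3 pairs of intervals overlapped. The 3 genes made up 7.06% of the TPM of the 6 catalytic subunits in pup 2 against 6.94% in pup 1, so the standard subunits predominated. The share differed among the pairs. Psmb10 held 21.8% of the sum of Psmb10 and Psmb7 in pup 2 against 21.6% in pup 1, Psmb8 held 4.63% of its pair in pup 2 against 4.62% in pup 1, and Psmb9 2.22% in pup 2 against 2.34% in pup 1. The difference between Psmb10 and the other pairs was therefore many times the difference between pups.

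**Figure D3:**
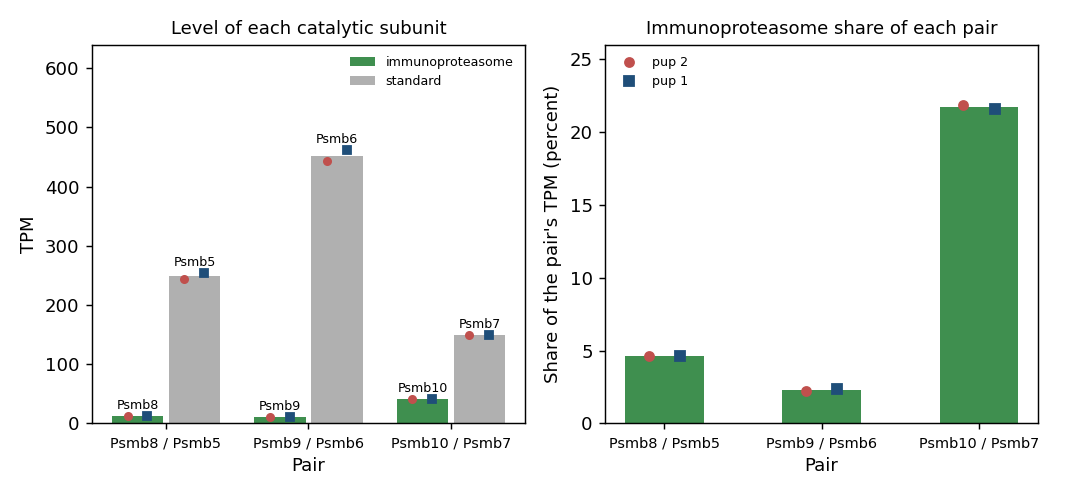
Left, TPM of the immunoproteasome subunits (green) and the standard subunits they replace (grey), as the mean of the pups (bars) with pup 2 (circles) and pup 1 (squares). Right, share of each pair's TPM in the immunoproteasome subunit, which was 21.8% in pup 2 against 21.6% in pup 1 for Psmb10 and under 5% for Psmb8 and Psmb9.

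The classical class II genes H2-Aa and H2-Ab1 encode the alpha and beta chains of I-A, and H2-Eb1 the beta chain of I-E. H2-Ab1 (chromosome 17, 34257689 to 34269419) reached a TPM of 16.2 in pup 2 against 16.98 in pup 1. H2-Aa stood at 5.80 in pup 2 against 7.02 in pup 1, and H2-Eb1 at 4.17 in pup 2 against 4.81 in pup 1. All 3 were lower in pup 2, each with overlapping intervals. H2-Eb2, chosen after its values were seen, had no count in either pup. H2-Ab1 stood 2.79 times as high as H2-Aa, its partner in the same heterodimer, in pup 2 against 2.42 times in pup 1. The 4 classical genes summed to a TPM of 26.2 in pup 2 against 28.8 in pup 1, so that classical class I stood 13.7 times as high as classical class II in pup 2 against 12.4 times in pup 1. In whole tissue, fewer cells of a type and less RNA per cell cannot be told apart.

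Cd74, the invariant chain, had a TPM of 13.99 in pup 2 (interval 12.8 to 14.9) against 16.9 in pup 1 (interval 15.6 to 17.9), from 638 counts in pup 2 against 803 in pup 1. Its intervals did not overlap, and its level was 0.828 times as high in pup 2 as in pup 1. Relative to H2-Ab1, Cd74 stood at 0.864 in pup 2 against 0.995 in pup 1. Of the peptide editors, H2-DMa had a TPM of 3.54 in pup 2 against 4.11 in pup 1 and H2-DMb1 1.83 in pup 2 against 2.28 in pup 1. H2-DMb2, whose coding sequence was 95.9% identical to that of H2-DMb1, stood at 0.56 in pup 2 against 0.68 in pup 1, so reads can be divided between them in more than one way. The level of H2-DMb2 includes a transcript that the later GENCODE release names H2-DMb1-202, at 0.20 in pup 2 against 0.27 in pup 1. Its own H2-DMb2-201 stood at 0.36 in pup 2 against 0.41 in pup 1. H2-Oa, the alpha chain of the DO protein of B cells and some dendritic cells, was near the limit of counting, with 9.94 counts in pup 2 against 9 in pup 1. Its partner H2-Ob had 4 counts in pup 2 against 10 in pup 1. H2-DMb2 and H2-Ob were named after their values were seen.

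All 5 detected class II genes and Cd74 were lower in pup 2. Summed over the classical class II genes and Cd74, pup 2 had 1772 counts and pup 1 had 2100, a ratio of 0.870 after scaling for library totals, with an exact 95% interval of 0.816 to 0.927 for counting error alone. This pooled sum was not among the classes fixed beforehand, and of its genes only Cd74 had TPM intervals apart. Without Cd74 the ratio was 0.901 (0.832 to 0.977), and over the nonclassical class II genes 0.916 (0.784 to 1.070). Over the classical class I genes it was 0.990 (0.973 to 1.007), and over the nonclassical class I genes 1.096 (1.046 to 1.148). These intervals leave out any spread between animals. Markers of cells that carry class II differed unevenly between the pups. All 4 general leukocyte markers had a lower TPM in pup 2, summing to 45.9 in pup 2 against 50.5 in pup 1, but to unequal degrees. Ptprc (CD45), with the largest drop, had a TPM of 1.53 in pup 2 against 2.11 in pup 1. Cd53 was nearly equal, at 5.35 in pup 2 against 5.36 in pup 1. Laptm5, the highest, had a TPM of 25.6 in pup 2 against 28.6 in pup 1, but 1798 counts in pup 2 against 1767 in pup 1. The 8 macrophage markers, all detected, summed to 204 in pup 2 against 201 in pup 1, with 6 of 8 higher in pup 2. Of the dendritic cell markers only Batf3 and Zbtb46 were detected among 8, and the sum was 6.88 in pup 2 against 7.39 in pup 1, with Xcr1, Ccr7 and Clec9a at a mean TPM under 0.1. Of the B cell markers Cd79b alone was detected among 5, with a sum of 2.29 in pup 2 against 2.00 in pup 1, and Pax5 had 3 counts in pup 2 against 0 in pup 1. In none of these 4 lists did a marker have intervals apart. The part of these cells in the class II difference was not tested.

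Nlrc5 and Ciita encode the coactivators of class I and class II promoters, and neither was detected. Nlrc5 had 27 counts in each pup and a TPM of 0.38 in pup 2 against 0.18 in pup 1. The counts were equal, while their division among transcripts of unequal length differed. The short transcript Nlrc5-202, with 138 codons, had 13.8 counts in pup 2 against 7.29 in pup 1, and the full-length Nlrc5-201, with 1915 codons, had 10.0 counts in pup 2 against 19.7 in pup 1. Ciita had 25 counts in pup 2 against 22 in pup 1, a TPM of 0.12 in pup 2 against 0.10 in pup 1. The factors with which these coactivators work were present: all 7 of Rfx5, Rfxap, Rfxank, Nfya, Nfyb, Nfyc and Creb1 were detected, led by Nfyc at 39.5 ± 1.66, Nfyb at 18.7 ± 1.97 and Rfxap at 17.1 ± 2.42.

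Promoters of class I genes are known to hold a site for NF-kB next to an interferon-stimulated response element, and those of class II genes an X box and a Y box bound by the RFX and NF-Y factors. The promoter table of RefSeq (GRCm38.p6, 250 bases before to 50 after the start) held 37 of the 44 genes and 27025 genes in all. On both strands, the letters GAANNGAAA, a form of the core of the response element, occurred in 8 of the 37 (21.6%), against 8.68% of all genes in the table. All 8 were class I heavy chains. Forms of the element with another spacing were not searched. The promoter of B2m, counted as without a match, holds GAAACTGAAA, which these letters cannot match. The letters GGGATTCCC occurred in 4 of the 37 (10.8%), against 0.414%. Both occurred in H2-D1, H2-K1, H2-Q6 and H2-Q7, without overlapping. H2-M2, with 1 count in pup 2 against 0 in pup 1, holds the core as TTTCCCTTC and is not shown. The windows below show the matches in capitals, with the response element on the opposite strand (TTTCACTTC). They are of the 7 other genes with the core, which differ widely in level.
H2-D1 (chr17:35262914-35262962, plus strand): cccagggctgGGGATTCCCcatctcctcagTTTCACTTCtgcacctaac
H2-K1 (chr17:34000419-34000467, minus strand): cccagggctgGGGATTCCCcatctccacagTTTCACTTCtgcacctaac
H2-Q6 (chr17:35424668-35424716, plus strand): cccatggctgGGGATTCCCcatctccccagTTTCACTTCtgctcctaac
H2-Q7 (chr17:35439012-35439060, plus strand): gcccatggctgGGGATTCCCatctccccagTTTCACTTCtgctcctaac
H2-Q4 (chr17:35379434-35379482, plus strand): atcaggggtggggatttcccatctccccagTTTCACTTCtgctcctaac
H2-Q10 (chr17:35469904-35469952, plus strand): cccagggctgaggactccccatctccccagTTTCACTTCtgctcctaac
H2-M3 (chr17:37270103-37270151, plus strand): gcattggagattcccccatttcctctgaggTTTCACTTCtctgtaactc
H2-Q6, at a TPM of 0.30 in pup 2 against 0.19 in pup 1, carried the same letters at both places as H2-D1, at 265 in pup 2 against 261 in pup 1. In H2-Q4, H2-Q10 and H2-M3 only the response element matched. A match describes letters and not a bound site.

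The letters AGNAACNG, followed on the same strand, whichever it is, by ATTGG with 15 to 35 bases from first base to first base and so without overlap, occurred in 3 of the 37 promoters (8.11%), against 0.352% of all genes. The 3 were H2-Eb1, H2-Eb2 and H2-DMb1, that is 2 of the 3 classical and 1 of the 5 nonclassical class II genes searched. H2-Ab1, Cd74 and Ciita were among the genes without a promoter in the RefSeq set, so they were not searched. The 3 matches are shown with both boxes in capitals because H2-Eb1 was detected and H2-Eb2 was not.
H2-Eb1 (chr17:34305765-34305822, plus strand): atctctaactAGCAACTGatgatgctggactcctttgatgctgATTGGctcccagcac
H2-Eb2 (chr17:34325532-34325589, plus strand): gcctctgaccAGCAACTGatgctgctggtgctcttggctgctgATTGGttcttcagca
H2-DMb1 (chr17:34153086-34153144, plus strand): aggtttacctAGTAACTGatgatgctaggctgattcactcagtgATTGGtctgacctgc
H2-Eb1 had 180 counts in pup 2 against 216 in pup 1, and H2-Eb2 had none in either. Both windows hold AGCAACTG and ATTGG at the same spacing.

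Interferon signalling was measured around these genes. Of 14 signalling genes 13 were detected, and Ifng itself had 1 count in each pup. The receptor genes Ifngr1 and Ifngr2 stood at 62.6 ± 0.403 and 46.6 ± 1.45 and the kinase gene Jak1 at 29.1 ± 0.438. Irf1, a factor that acts on class I promoters and that was named after its values were seen, had a TPM of 16.0 in pup 2 against 22.04 in pup 1. Its intervals were apart, and its log2 ratio of -0.44 lay outside the range of -0.35 to 0.38 of most protein-coding genes. Of the 13 detected signalling genes, 6 were higher and 7 lower in pup 2. Intervals were apart in 3 of the 13, each lower in pup 2, against 21.6% of protein-coding genes with enough counts. Among 18 interferon-stimulated genes outside the antigen presentation genes, 13 were detected, led by Bst2 at 29.6 ± 0.792, Oasl2 at 17.7 ± 1.26 and Irgm1 at 11.7 ± 0.983. Of the 13, 10 were lower and 3 higher in pup 2, none by 2-fold, and 1 had intervals apart. The chemokine genes Cxcl9 and Cxcl10, also named after their values were seen, stood low: Cxcl9 at 0.02 in pup 2 against 0.03 in pup 1, and Cxcl10 at 0.63 in each.

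H2-Ke6 carries an H2- symbol by its position, but encodes a hydroxysteroid dehydrogenase that takes no part in antigen presentation. It had a TPM of 37.0 in pup 2 against 33.6 in pup 1, with overlapping intervals, and it was the sixth highest of the 44. Of the windows of 100 bases in its main transcript, 60.4% also occurred in transcripts of Gm20427, the highest such share among the 44 genes, so its level is uncertain.

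The transcript tables show which forms of these genes made up each level. Taking the members named for a mean TPM of at least 1 or by the fixed list, 20 have more than 1 transcript. In each of the 20 the main transcript was the same in both pups, and in 19 it is annotated as protein-coding. Members named after their values were seen are outside this count. Of those, H2-M5 had all its counts, 7 in pup 2 against 4 in pup 1, in a retained-intron transcript, and the few counts of H2-Ob lay in non-coding transcripts in pup 2 against the coding H2-Ob-201 in pup 1. Among the 20 the exception was Tap2. Its retained-intron transcript Tap2-202 held 81.4% of the gene's TPM in pup 2 against 73.2% in pup 1, while the coding Tap2-201 stood at a TPM of 0.91 in pup 2 against 0.83 in pup 1. By the deposited TPM, the full coding form of the second TAP subunit, taken alone, would thus miss the detection limit that the gene as a whole passed. This depends on how reads were divided among the transcripts. By posterior mean, the share of Tap2-202 was 63.4% rather than 77.3%, and the level of Tap2 5.89 rather than 4.97 (means of the pups).

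For other genes the split lay between coding forms. H2-K1-201 held 68.4% of H2-K1 in pup 2 against 71.7% in pup 1, and H2-K1-205, which has 27 fewer coding bases, held 26.2% in pup 2 against 22.3% in pup 1. H2-D1-202 held 90.3% of H2-D1 in pup 2 against 90.9% in pup 1, and H2-T23-201 held 96.9% of H2-T23 in pup 2 against 97.2% in pup 1. H2-T22 was divided between H2-T22-202, at 60.2% in pup 2 against 53.6% in pup 1, and H2-T22-203, at 26.9% in pup 2 against 38.3% in pup 1. These have the same number of coding bases. For the invariant chain, Cd74-201 held 85.04% in pup 2 against 84.0% in pup 1, and Cd74-202, which has 192 more coding bases, held 14.96% in pup 2 against 15.99% in pup 1. The mouse invariant chain is known in a short and a long form of this kind. In H2-Q2, the form H2-Q2-202, annotated with 854 fewer coding bases than H2-Q2-201 and with a coding length that is no multiple of 3, held 52.8% in pup 2 against 71.7% in pup 1.

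Psmb8-203 and Psmb8-201 were close to even, with 55.0% in Psmb8-203 in each pup and 44.7% in Psmb8-201 in pup 2 against 45.0% in pup 1. In Psmb9, the 433-base Psmb9-202 held 31.9% of TPM in pup 2 against 27.8% in pup 1 from only 42.7 counts in pup 2 against 42.5 in pup 1, since TPM divides by length. Tap1-206 held 48.3% of Tap1 in pup 2 against 69.2% in pup 1, and Tap1-201 held 38.3% in pup 2 against 26.2% in pup 1. In H2-DMa a retained-intron form held 17.2% in pup 2 against 36.5% in pup 1, and the coding H2-DMa-201 stood at a TPM of 2.93 in pup 2 against 2.61 in pup 1. The gene total was lower in pup 2 while the coding transcript was not, and its intervals overlapped.

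**Figure D4:**
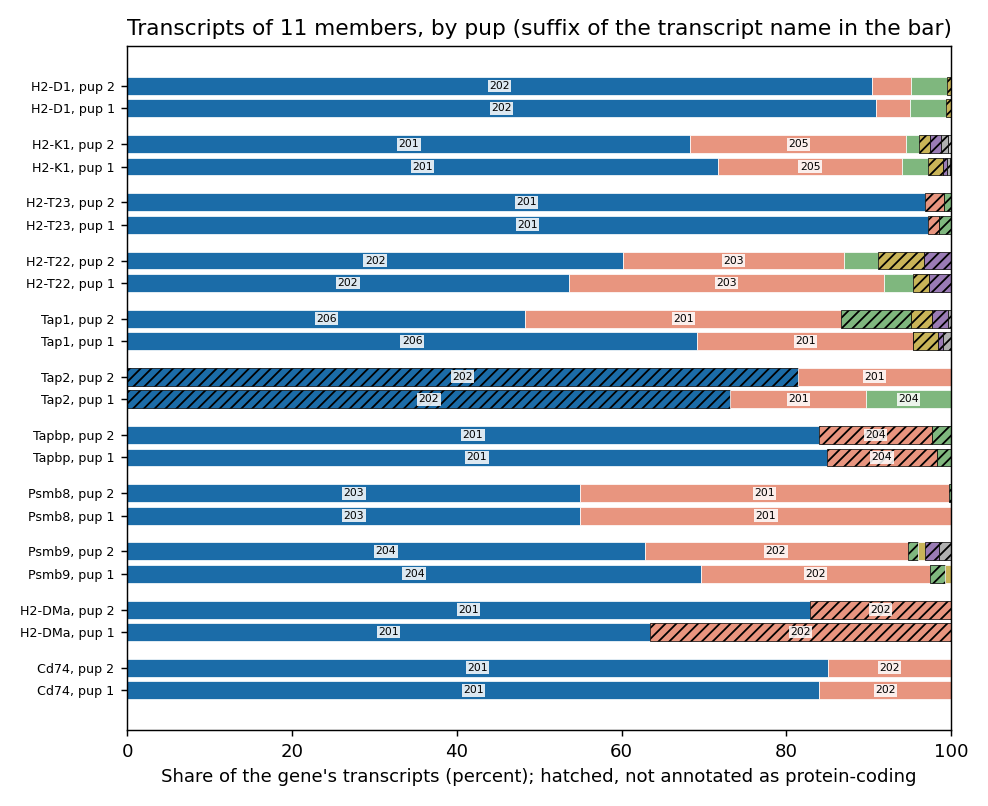
Share of each gene's TPM in its transcripts, as percent, in pup 2 (upper bar) and pup 1 (lower bar) of each pair, with the suffix of the transcript name inside the bar and hatching where a transcript is not annotated as protein-coding. Tap2 is the gene whose hatched share is largest, at 81.4% in pup 2 against 73.2% in pup 1.

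Precision followed the counts. The interval width, as a percent of the posterior mean TPM and averaged over pups, was 3.76% for H2-D1 and 3.53% for B2m, 14.5% for H2-Ab1 and 52.5% for H2-Q2. Its median over the 22 members at or above a mean TPM of 1 was 21.3%, against 14.4% over protein-coding genes of that level. At mean counts of 100 to 1000 the median was 27.9% over 12 members and 24.0% over 5186 genes. Among those wide for their counts were Tap2 at 40.4%, H2-DMa at 40.3%, Psmb9 at 29.97% and Tap1 at 21.7%. Of the 100-base windows of Psmb9, 9.02% occurred in its divergent neighbour Tap1, and of those of Tap2, 4.13% in Gm15821. No window of H2-DMa occurred in a transcript of another gene. The windows came from a protein-coding transcript of each gene, here Tap2-201 and H2-DMa-201. The retained-intron forms of Tap2 and H2-DMa were not searched. The share was higher in several genes. It was 14.8% in H2-T22, mostly with H2-T10, 14.04% in Tapbp, mostly with Gm19412, 13.9% in H2-Q4 and 13.7% in H2-DMb1, all of it with H2-DMb2. The widths of H2-T22 (11.9%) and H2-Q4 (29.6%) lay near the medians of protein-coding genes of similar counts, 12.6% and 28.9%. Those of Tapbp (7.06%) and H2-DMb1 (43.7%) lay above theirs, 5.12% and 37.9%. Both genes have counts at the lower edge of their groups, and the next lower groups had medians of 6.93% and 50.1%. The width of Tapbp was thus close to the median of the group below, and that of H2-DMb1 lay between the medians of its group and the group below. The part of shared reads in the interval widths was not tested.

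**Figure D5:**
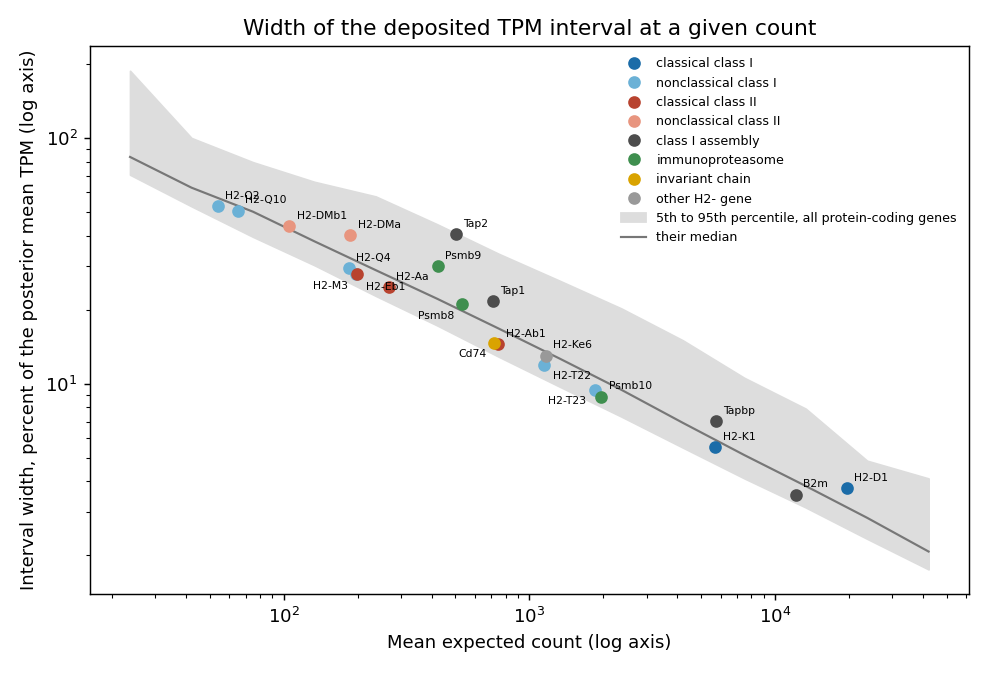
Width of the deposited TPM interval, as percent of the posterior mean TPM, against mean expected count, both on log axes, for the 22 members at or above a mean TPM of 1 and for all protein-coding genes (line, median; grey, 5th to 95th percentile). Tap2, at 40.4%, lies at the upper edge of the grey band, and H2-D1 and B2m, at 3.76% and 3.53%, have the most counts.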

How the data were processed

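Total RNA of 2 stomachs was sequenced, 1 library per pup, from 10 ng of RNA above 200 nucleotides with spike-ins, per the labels' protocols. The expected counts that the authors deposited estimate reads per feature, dividing shared reads among genes. Deposited TPM is scaled to a fixed total over all features and comes with a posterior mean and interval bounds. The bounds can leave out the TPM itself, at low levels and at high ones, as for Krt8 in pup 2 (1831, interval 1795 to 1815). This held for none of the detected members in either pup. Deposited FPKM is per kilobase and per total reads. The share of each transcript is the percent that the authors deposited. No aligner, quantifier or strandedness is given in the sources used here. Reads of overlapping or antisense genes cannot be separated without strand. Gene length exceeded effective length by 99, as for reads of 100 bases.

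Symbols, types and mm10 positions came from GENCODE M21, a later release than that of the files, which matched 42462 of 43346 Ensembl genes. Class sums, shares and ratios were computed per pup, and ratios of summed counts carry exact binomial intervals at 95%, for counting error only. A pseudocount of 1 was added to TPM before log2, which understates differences of low genes. The alternatives used TMM (edgeR 4.0.16) and DESeq2 (1.42.0) factors on rounded counts, and the calling rule, with Poisson intervals in place of the deposited ones, was tested on simulated data. With 1 library per pup no differential test was run. Shared windows of 100 bases and coding identities (Biopython 1.88) used the protein-coding M21 transcript of each gene with the highest share.

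The members and lists were chosen with earlier results of these data known. The text names all members whose mean TPM is 1 or more and, whatever their level, the 10 singly named genes and H2-K1, H2-D1, H2-Aa, H2-Ab1, H2-Eb1, H2-DMa, H2-Oa, H2-M3, H2-T23 and H2-Q10. It names the 3 highest genes of each context list, and of the marker lists those that set the comparison. Other genes were named after their values were seen. A further marker list is not reported here.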

Additional observations from a re-analysis of the deposited data

How the results depend on the processing

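No paired analysis was possible because the pups form 1 group. Detected members numbered 14 with a limit of TPM 5, 29 with a limit of 0.1, and 22 in each pup alone. None was called at 1.5-fold or 3-fold, at mean counts of at least 10 or 1000, with no filter on counts, with Poisson intervals on TMM-scaled or DESeq2-scaled counts, with the median ratio set to 0, or with the H2-Q and H2-T genes summed. Dropping the fold limit, chosen after the data were seen, gave 4. Sums depend on the scale by construction. With FPKM they were 286 for classical class I, 48.2 for nonclassical class I, 21.97 for classical class II and 5.47 for nonclassical class II. With TPM rescaled to nuclear protein-coding genes they were 425, 71.5, 32.6 and 8.10. The posterior mean TPM gave 355 for classical class I, a shift above the very small spread between pups, and for the other classes it moved the sum by less than that spread. The ratio of class I to class II ran from 12.4 to 13.7 and the immunoproteasome share from 6.94% to 7.06% over their settings. The median log2 ratio ran from -0.06 with DESeq2-scaled counts to 0 with no filter. Of the 20 main transcripts counted, 19 stayed the main one by posterior mean, and in Nlrc5 it was Nlrc5-206. Their shares were less stable. By posterior mean, 10 of the 20 shares shifted by at least the SD of the pups, and 10 by less. As means of the pups, Tap2-202 went from 77.3% to 63.4%, H2-Oa-201 from 100% to 77.9% and Nlrc5-202 from 59.0% to 24.2%. Where that SD was very small, a small shift also counted, as for Psmb8-203, from 55.0% to 54.9%. Low counts, as in Nlrc5, Ciita, H2-Oa and most nonclassical class I genes, and stretches shared with other genes, as in most H2-Q genes, H2-T22, H2-DMb1 and H2-DMb2, limit what these libraries resolve.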

Other observations

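Class I-like genes outside the H2- symbols were also expressed. Of 6 found, 5 were detected in both pups. Fcgrt, the neonatal Fc receptor that carries maternal antibody across epithelia, had a TPM of 60.5 in pup 2 against 60.2 in pup 1, close to Tapbp and above every nonclassical H2- gene. Hfe, a regulator of iron uptake, stood at 12.2 in pup 2 against 13.1 in pup 1, and Procr, the receptor of protein C, at 10.5 in pup 2 against 11.9 in pup 1. Cd1d1, which presents lipids to natural killer T cells, stood at 10.2 in pup 2 against 8.96 in pup 1, and Mr1, which presents vitamin B metabolites, at 3.70 in pup 2 against 3.59 in pup 1. Azgp1 reached 1.22 in pup 2 against 0.93 in pup 1. Cd1d1, Mr1 and Azgp1 were named after their values were seen.

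The 5 lysosomal genes of class II processing were all detected, led by the cathepsin genes Ctsd at 710 ± 27.2, Ctsb at 181 ± 8.48 and Ctsl at 143 ± 2.51 (mean ± SD, n = 2). Ctss, the cathepsin that degrades the invariant chain in immune cells, was named after its values were seen. It had a TPM of 27.3 in pup 2 against 30.6 in pup 1, with intervals apart. Of the 5 genes, 2 others had intervals apart, both higher in pup 2. These were Ctsd, at 729 in pup 2 against 691 in pup 1, and Ctsb, at 187 in pup 2 against 175 in pup 1. The TPM of both lay above its own interval in each pup. Among protein-coding genes with enough counts, 21.6% had intervals apart. Of 4 costimulation genes, Icosl stood at 4.44 in pup 2 against 4.00 in pup 1, Cd40 at 3.12 in pup 2 against 2.81 in pup 1 and Cd86 at 1.69 in pup 2 against 1.32 in pup 1. The intervals of the pups overlapped for all 3. The fourth, Cd80, was not detected.

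T cell and natural killer markers were low: none of 6 was detected, and their TPM summed to 1.22 in pup 2 against 0.69 in pup 1. The 5 epithelial markers, led by Krt8, Krt18 and Krt5, summed to 3311 in pup 2 against 3170 in pup 1, and 4 of them were higher in pup 2 with intervals apart. Over all protein-coding genes with enough counts 21.6% had intervals apart, 1748 higher and 1115 lower in pup 2. Endothelial markers summed to 29.8 in pup 2 against 30.4 in pup 1. Of 11 H2- genes that are not annotated as protein-coding, 5 had no count in either pup, and none reached a TPM of 1. Among the 5 was H2-Ea-ps, the gene of the I-E alpha chain, which is not functional in this strain background. Its partner H2-Eb1 had 180 counts in pup 2 against 216 in pup 1.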
